A study of Arabidopsis thaliana with 8 samples.

Results

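Among the genes represented on a thale cress array were 4 whose products sit in the light-harvesting machinery of the chloroplast: PSBW, PSBY, PSAN and LHB1B2. They were taken by annotation alone, as the rows that name exactly 1 gene and name one of these, and each of the 4 had 1 such row. They are 4 of the 692 rows naming a single gene, in a table of 3439 rows. Their loci are AT2G30570 for PSBW, AT1G67740 for PSBY, AT5G64040 for PSAN and AT2G34420 for LHB1B2, which is also called LHCB1.5. The plants were Arabidopsis thaliana, wild type, ecotype Columbia 0, and were compared at 4 weeks and at 1 week of age. Total RNA of 4 samples per age, numbered 1 to 4, was measured. The labels give neither the organs taken nor the growth conditions, nor whether different plants were used for the samples of an age. The p-values therefore describe the spread among these samples, and part or all of it may be technical. In such bulk RNA, a difference in the share of green cells and a difference in RNA per cell cannot be told apart.

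In oxygenic photosynthesis, photosystem II takes electrons from water and photosystem I passes them on towards NADP+. Light-harvesting complex II is the main antenna and feeds excitation energy into the photosystems. Both reaction centres combine subunits coded in the chloroplast with small subunits coded in the nucleus and imported after translation, and all genes described here are nuclear. PSBW codes for a small membrane subunit of photosystem II that is known for holding its supercomplexes with the antenna together. PSBY codes for a precursor that is cut into a pair of small thylakoid membrane proteins associated with photosystem II. PSAN codes for a subunit of photosystem I on the lumen side, where plastocyanin delivers electrons. LHB1B2 codes for one of several closely related LHCB1 proteins, which make up most of the trimeric antenna of photosystem II.

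For each gene the size or the call of the age difference depended on scaling or on reading sample numbers as pairs. The antenna gene LHB1B2 had about 0.5 times the signal at 4 weeks on the values as deposited, and a smaller difference that missed the threshold once the arrays were quantile normalized. PSAN was higher at 4 weeks by 0.39 on the log2 scale of quantile normalized values, where it passed. As deposited its difference was 0.26 and missed the threshold. PSBY was higher at 4 weeks within every sample number. However, its samples were spread too widely within an age for a call over all 8 samples without pairing. PSBW, the brightest of the 4, had nearly equal mean deposited signals at both ages. Its log2 difference was 0.09 as deposited and 0.60 on quantile normalized values. It passed on neither scale over all 8 samples without pairing.

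Signals are array intensities in arbitrary units, on a scale that the sources used here do not define. The sum over all rows ran from 3070 to 3374 per sample and the median row from 0.390 to 0.453. None of the members' values was 0 and none lay at the ceiling of 100 at which the table ends. Principal components were computed on quantile normalized values of the 2814 tested rows measured in all samples. Component 1 carried 61.2% of the variance and divided the arrays by age. Component 2, with 19.8%, set samples 1 and 2 apart from samples 3 and 4 at both ages, a split that no label explains. It is named here because it touches PSBW and PSBY strongly. Deviations from the age means correlated at 0.425 to 0.527 between samples that carry the same number at both ages, and at 0.180 to 0.397 between other samples on the same side of the split. By the rule that every same-number pair exceed 0.1 the numbers were taken as pairs, which is a reading of the data and not of the labels. Samples of different number on the same side of the split also passed 0.1, so the split alone would meet this threshold. Only the higher range of the same-number values speaks for the numbers themselves. For samples 3 and 4 that margin was small, with 0.425 and 0.433 for the same number against 0.343 and 0.397. Of the organ markers looked for, 0 of 4 root, 0 of 4 flower, 0 of 4 seed and 0 of 2 senescence genes had a single-gene row, and of 4 green-tissue markers only PRK had one, so the tissue makeup could not be checked.

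Values as deposited are given first for each gene. LHB1B2 had signals of 7.26, 7.80, 4.74 and 6.90 in samples 1 to 4 of 4-week plants. In samples 1 to 4 of 1-week plants they were 14.7, 15.3, 9.06 and 12.4. All 4 older samples lay below all 4 younger ones, and within each age sample 3 was the lowest. The means were 6.68 ± 1.34 at 4 weeks and 12.9 ± 2.85 at 1 week (SD, n = 4 each). Such a lack of overlap, in either direction, was seen in 46.7% of the 2924 tested rows, so it is common on this array. Set against the sample of the same number, the older signal was 0.493, 0.509, 0.523 and 0.559 times the younger one, a narrow range. On the log2 scale of the deposited values the difference was −0.94 (95% interval −1.45 to −0.44, limma adjusted p = 0.00901), in a fit that called 48.0% of all tested rows.

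PSAN, the photosystem I subunit, had signals of 2.79, 3.32, 3.52 and 3.62 in 4-week samples 1 to 4. Its 1-week samples 1 to 4 had 2.32, 3.01, 2.59 and 3.19. These ranges overlapped, since 4-week sample 1 lay below samples 2 and 4 of the younger plants, and this was the steadiest of the 4 rows, with a coefficient of variation of 11.1% at 4 weeks and 14.2% at 1 week. The means were 3.31 ± 0.368 at 4 weeks and 2.78 ± 0.395 at 1 week (SD, n = 4 each). The ratio of the older to the younger sample of a number was 1.20, 1.10, 1.36 and 1.13, above 1 each time.

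PSBY, the photosystem II gene with the dimmest row of the 4, had signals of 0.435, 0.612, 2.66 and 2.14 in 4-week samples 1 to 4. In 1-week samples 1 to 4 it had 0.199, 0.242, 1.45 and 1.24. At both ages samples 3 and 4 were far above samples 1 and 2, and the ages overlapped. The signal of samples 3 and 4 was 4.63 times that of samples 1 and 2 at 4 weeks and 6.11 times at 1 week, as ratios of geometric means. A gap of that size or larger between these sample pairs was found in 1.57% of tested rows at 4 weeks and 1.44% at 1 week. Within a number the older signal was 2.18, 2.53, 1.83 and 1.73 times the younger one.

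PSBW, the stabilising subunit of photosystem II supercomplexes, had signals of 25.4, 28.3, 15.3 and 18.2 in 4-week samples 1 to 4. In the 1-week samples it had 27.2, 29.5, 12.9 and 15.1. Here samples 1 and 2 were the high ones at both ages, the reverse of PSBY. Their signal was 1.61 times that of samples 3 and 4 at 4 weeks and 2.03 times at 1 week, a gap reached or passed in 14.3% and 10.9% of tested rows. The means were 21.8 ± 6.06 at 4 weeks and 21.2 ± 8.38 at 1 week (SD, n = 4 each). The ratio of the older to the younger sample was 0.934 and 0.958 for numbers 1 and 2, and 1.19 and 1.20 for numbers 3 and 4.

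**Figure D1:**
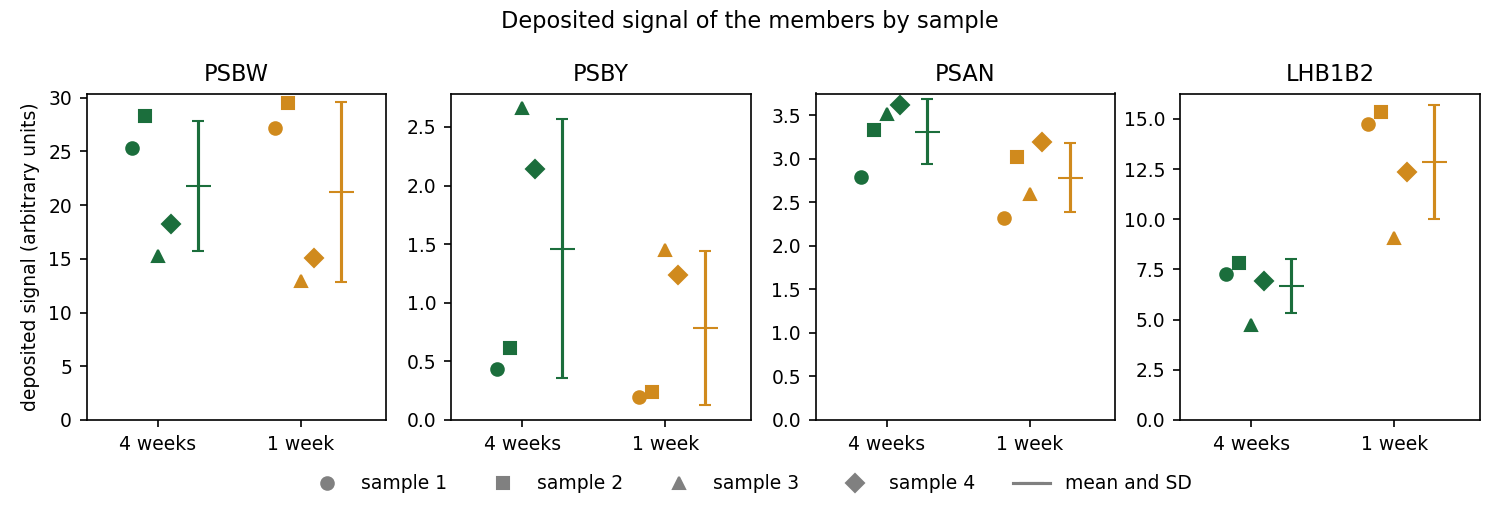
Deposited signal (arbitrary units, linear axis from 0) of PSBW, PSBY, PSAN and LHB1B2 in the 4 samples of 4-week plants (left) and of 1-week plants (right), with marker shape giving the sample number and bars the mean and SD. LHB1B2 ran from 4.74 to 7.80 at 4 weeks, below the 9.06 to 15.3 at 1 week, while PSBW and PSBY differed more between samples 1 and 2 and samples 3 and 4 than between the ages.

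Read as pairs, the sample numbers also give a view of how far the ages differ once the level of a number is set aside. On the deposited log2 scale the 4 within-number differences of LHB1B2 lay between −1.02 and −0.84, and those of PSBY between 0.79 and 1.34. Those of PSAN lay between 0.14 and 0.44, and only those of PSBW fell on both sides of 0, from −0.10 to 0.27. Quantile normalization moved LHB1B2 to between −0.64 and −0.30 and PSBW to between 0.15 and 0.96, so that PSBW was then higher at 4 weeks within every number.

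**Figure D2:**
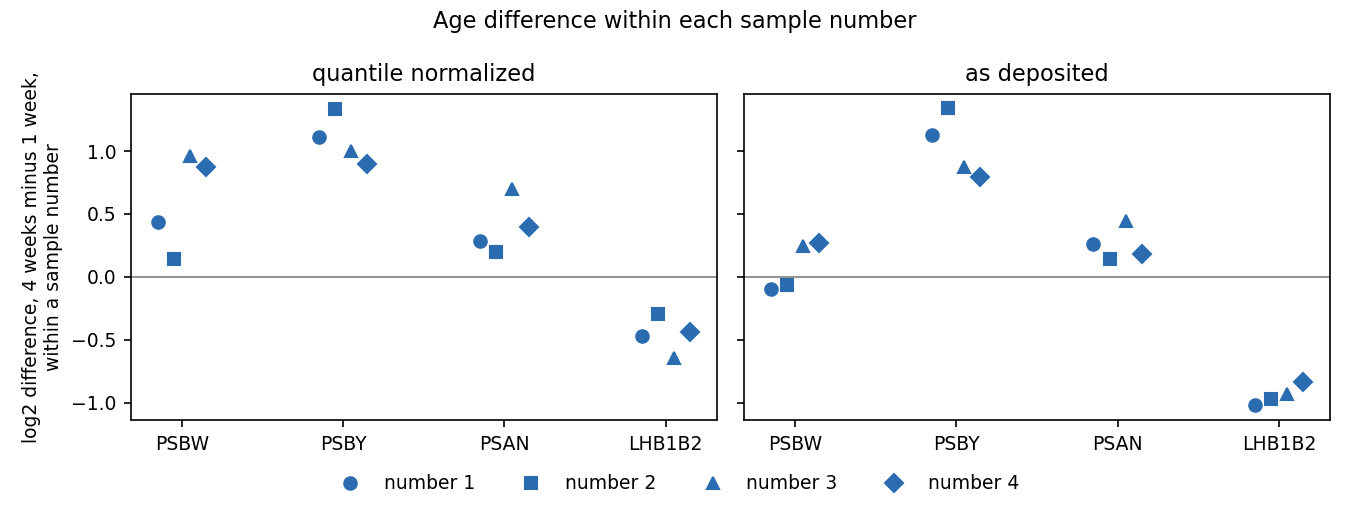
Log2 difference, 4 weeks minus 1 week, within each sample number, on quantile normalized values (left panel) and on deposited values (right panel). LHB1B2 lay below 0 and PSBY and PSAN above 0 for all 4 numbers in both panels, whereas PSBW lay on both sides of 0 as deposited and above 0 after normalization.

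To ask which of these differences exceeded the spread between samples, limma was fitted to log2 signals over all tested rows after quantile normalization, with Benjamini-Hochberg adjustment. In this fit 45.7% of the 2924 rows were called at an adjusted p under 0.05, and 1 of the 4 members, PSAN, was among them. PSAN rose by 0.39 on the log2 scale (SE 0.13, 95% interval 0.09 to 0.70, limma adjusted p = 0.0389), and after this scaling every older sample (signals of 3.001 to 3.78) lay above every younger one (2.33 to 2.99), which held in either direction for 45.1% of rows. LHB1B2 had a log2 difference of −0.46 (SE 0.23, 95% interval −0.99 to 0.07, limma adjusted p = 0.135). PSBW had 0.60 (SE 0.32, 95% interval −0.14 to 1.34, limma adjusted p = 0.158), and PSBY had 1.09 with a far wider interval (SE 0.83, 95% interval −0.83 to 3.001, limma adjusted p = 0.314). An interval of that width leaves a change of either sign possible for PSBY. In the exact two-sided permutation test over the 70 assignments of samples to ages, PSAN had the smallest p possible, 0.0286. Its adjusted p, 0.0626, was the smallest of any row in that test, so no row was called there. LHB1B2, PSBW and PSBY had unadjusted p of 0.0857, 0.171 and 0.343 in the same test.

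All 4 members passed when the sample numbers entered as a block, in a fit that called 56.6% of rows. These calls rest on reading the numbers as pairs, which the labels do not state. The limma adjusted p was then 0.00117 for PSBY, 0.0139 for LHB1B2, 0.0286 for PSBW and 0.0369 for PSAN, at unchanged log2 differences. The same block on the deposited values, an alternative added after the data were seen, called 58.9% of rows. There LHB1B2 (−0.94, adjusted p = 0.000971) and PSBY (1.03, adjusted p = 0.00205) passed, and PSAN (0.26, adjusted p = 0.0703) and PSBW (0.09, adjusted p = 0.518) did not. With samples 1 and 2, and samples 3 and 4, first averaged and these pairs then taken as a block, also added later, 36.3% of rows were called. PSBY passed there (adjusted p = 0.0107), and PSBW (0.0945), LHB1B2 (0.126) and PSAN (0.190) did not.

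The difference of PSBW also depended on which samples were used. On normalized values it was 0.29 in samples 1 and 2 alone (limma adjusted p = 0.169, with 44.4% of rows called) and 0.92 in samples 3 and 4 alone (adjusted p = 0.00721, with 48.9% of rows called). The difference between these, 0.63 (SE 0.17), had an unadjusted p of 0.0104 and a limma adjusted p of 0.153 in a test that called 0.32% of 2814 rows. On the deposited values it was 0.34 (adjusted p = 0.383). Without 1-week sample 2 the log2 difference of PSBW was 0.86 and passed at a limma adjusted p of 0.0475, with 43.7% of rows called. For PSBY the values were 1.22 in samples 1 and 2 alone (adjusted p = 0.0223) and 0.95 in samples 3 and 4 alone (adjusted p = 0.0174), so each side of the split gave a rise when taken by itself. Removing 1-week sample 1 lowered the PSBY difference to 0.62, and it was 0.72 without 1-week sample 2 and 0.67 without 4-week sample 3. For LHB1B2 the difference shrank to −0.27 without 4-week sample 3, the lowest of its row. PSAN missed the threshold without 4-week sample 2, 3 or 4 (adjusted p 0.0766, 0.0860 and 0.0872) or without 1-week sample 1, 3 or 4 (0.0834, 0.0955 and 0.0525). The fits in which PSAN missed called 38.0% to 44.7% of rows, against 45.7% with all samples.

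Of these rows, those of PSBW, LHB1B2 and PSAN stand near the bright end of the array. In the ranking of rows from the brightest down, PSBW stood at places 11 to 16 at 4 weeks and 12 to 29 at 1 week. LHB1B2 stood at places 34 to 60 at 4 weeks and 27 to 42 at 1 week, and PSAN at 83 to 105 and 105 to 143. PSBY held widely different places, 119 to 1626 at 4 weeks and 339 to 2442 at 1 week. A rank describes the row's brightness and not the transcript's abundance relative to other genes.

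The bright end of the arrays differed between the ages as deposited, and the middle differed far less. The mean log2 difference between the rows in a given place was −0.41 at place 10 and −0.46 at place 15. It was furthest from 0, among the places examined, at place 20 (−0.89), where signals were 10.1 to 13.7 in 4-week samples and 20.2 to 24.1 in 1-week samples. At place 30 it was −0.55, at place 40 −0.31, at place 100 −0.09 and at place 1000 0.03. Of the 100 brightest rows by mean signal, members apart, 98 were tested. Their median log2 difference was −0.20 as deposited, against 0.21 for the other 2826 rows. In the limma fit 38 of the 98 (38.8%) were called lower and 29 (29.6%) higher. Of all tested rows 19.97% were called lower and 28.01% higher there. After quantile normalization the median of the 98 was 0.07, with 23 (23.5%) called lower and 37 (37.8%) higher. Of all tested rows 20.4% were then called lower and 25.3% higher.

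Quantile normalization gives every array the same set of values, and so takes out this age gap of the bright end. It raised the log2 signal of PSBW by 0.31 on average at 4 weeks and changed it by −0.21 at 1 week. For LHB1B2 the shifts were 0.16 at 4 weeks and −0.32 at 1 week. For PSAN they were 0.08 and −0.06, and for PSBY, lower in the array, 0.02 and −0.03. The log2 difference of LHB1B2 thus went to −0.46 with this step and −0.94 without it, and that of PSBW to 0.60 with it and 0.09 without it.

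**Figure D3:**
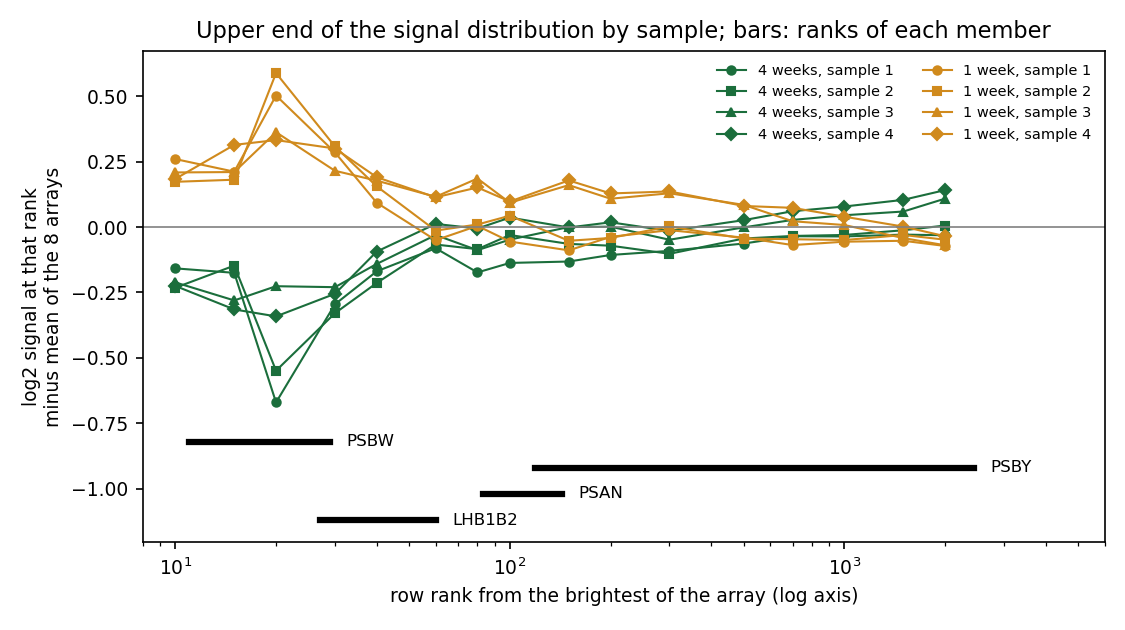
Log2 signal of the row at a given rank, minus the mean over the 8 arrays, against rank from the brightest row (log axis), for the 4 samples of 4-week plants and the 4 of 1-week plants, with black bars for the range of ranks of each member. The ages lay apart at ranks 10 to 40, which take in all ranks of PSBW and part of those of LHB1B2 (27 to 60). They also lay apart, by less, at ranks 80 and 300, and at rank 2000 with 4 weeks above 1 week. They overlapped at the other ranks plotted, such as 60 and 1000.

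Other ways of scaling left the shape of the bright end in place or altered it partly. Centring each array on its median gave LHB1B2 −0.99 (limma adjusted p = 0.00794), and centring on the 75th percentile gave −0.95 (0.0119). Centring on the 100 brightest rows other than the members gave −0.82 (0.0369), and cyclic loess, which bends the arrays towards each other along the intensity range, gave −0.68 (0.0348). LHB1B2 was thus lower at 4 weeks under all 6 scalings and passed under 5, quantile normalization being the exception. These fits called 46.1%, 46.8%, 48.5% and 43.5% of all rows, in the order given. PSBW ran from 0.04 with median centring to 0.60, and passed under none of the 6 without a block. PSAN ran from 0.21 with median centring to 0.39, and passed with quantile normalization and with centring on the brightest rows (0.38, adjusted p = 0.0489) but not as deposited (0.26, 0.176), with either percentile (0.239 for the median and 0.149 for the 75th) or with cyclic loess (0.30, 0.0991). PSBY was the least sensitive, at 0.98 to 1.15, and passed under none.

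Because each scaling also moves the median of all rows, from 0.08 with cyclic loess to 0.33 with centring on the brightest rows, the members were also set against that median. Relative to it LHB1B2 had −1.15 as deposited and −0.62 after quantile normalization, with 12.5% and 23.1% of tested rows lower still. PSBY lay above it by 0.83 and 0.93 on these scales. PSAN lay only 0.05 above the median row as deposited and 0.23 above it when normalized. PSBW changed side, at −0.12 as deposited and 0.44 when normalized.

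**Figure D4:**
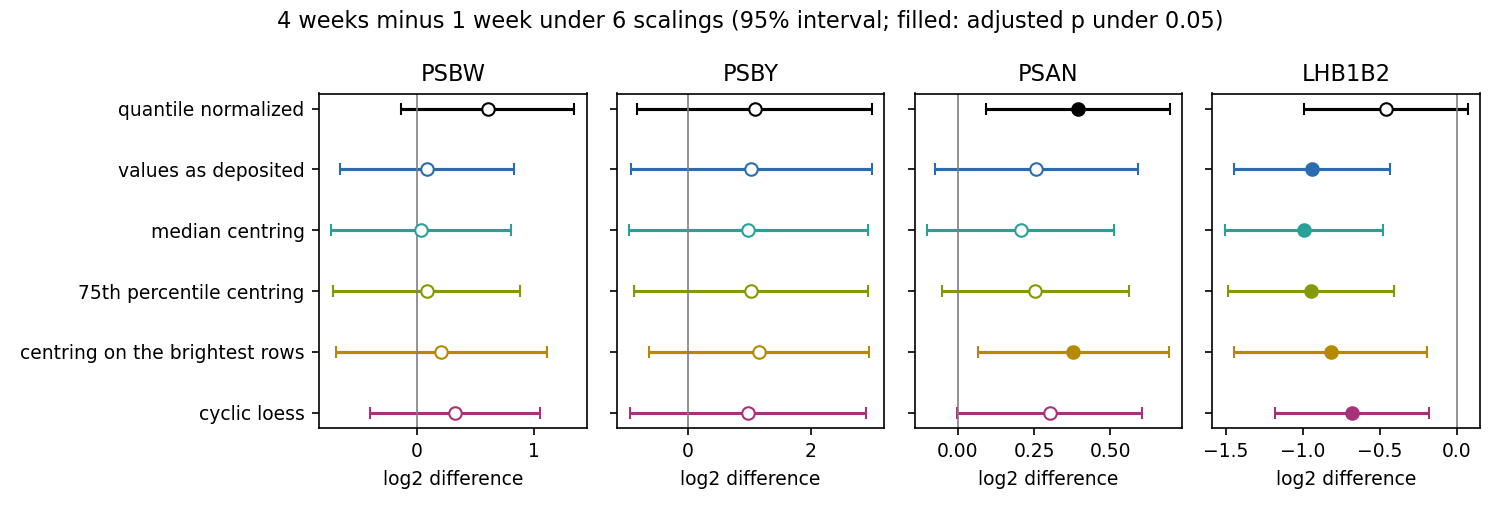
Log2 difference, 4 weeks minus 1 week, of each member under 6 scalings, with the 95% interval from limma. Filled points have an adjusted p under 0.05. LHB1B2 is filled under every scaling but quantile normalization, PSAN under quantile normalization and centring on the brightest rows, and PSBW and PSBY under none.

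A ratio of 2 rows on the same array does not depend on any factor that multiplies the whole array, so the members were also compared with each other in this way, in 6 pairs. Such a ratio shows whether 2 rows changed by unequal amounts, not which of them changed, and its size says nothing of transcript amounts. The ratio of PSBW to LHB1B2 was 3.49, 3.63, 3.23 and 2.64 in 4-week samples 1 to 4, against 1.84, 1.93, 1.42 and 1.22 in 1-week samples. The older samples all lay above the younger ones, by 1.03 on the log2 scale or 2.04-fold. The difference between samples 1 and 2 and samples 3 and 4 that marks PSBW was smaller in this ratio than in PSBW itself.

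The ratio of PSAN to LHB1B2 was 0.384, 0.426, 0.741 and 0.524 at 4 weeks, against 0.158, 0.197, 0.286 and 0.258 at 1 week, again without overlap and 2.30-fold higher (1.20 on the log2 scale). Both ratios had the smallest p that the exact two-sided permutation test allows, 0.0286. Both missed the threshold after Benjamini-Hochberg adjustment over the 6 pairs (0.0857). With only these ratios at the floor of the test a lower adjusted p was not possible, so the miss says little about the difference itself. On the deposited values, leaving out any 1 sample kept the difference of PSBW to LHB1B2 between 0.91 and 1.13 and that of PSAN to LHB1B2 between 1.01 and 1.33. With quantile normalized values and all samples the differences were 1.07 and 0.86, at the same exact permutation p. The ratio of PSBY to LHB1B2 was higher at 4 weeks in all 4 numbers (1.97 on the log2 scale) but overlapped between ages (exact permutation p = 0.171, adjusted 0.343). The 3 ratios among PSBW, PSBY and PSAN had differences of −0.94 for PSBW to PSBY, −0.17 for PSBW to PSAN (0.21 on quantile normalized values) and 0.78 for PSBY to PSAN, with exact permutation p of 0.514, 0.571 and 0.457. These tests take no account of the sample numbers, within which PSBW to PSBY was lower at 4 weeks in all 4, PSBY to PSAN higher in all 4 and PSBW to PSAN higher in 1.

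**Figure D5:**
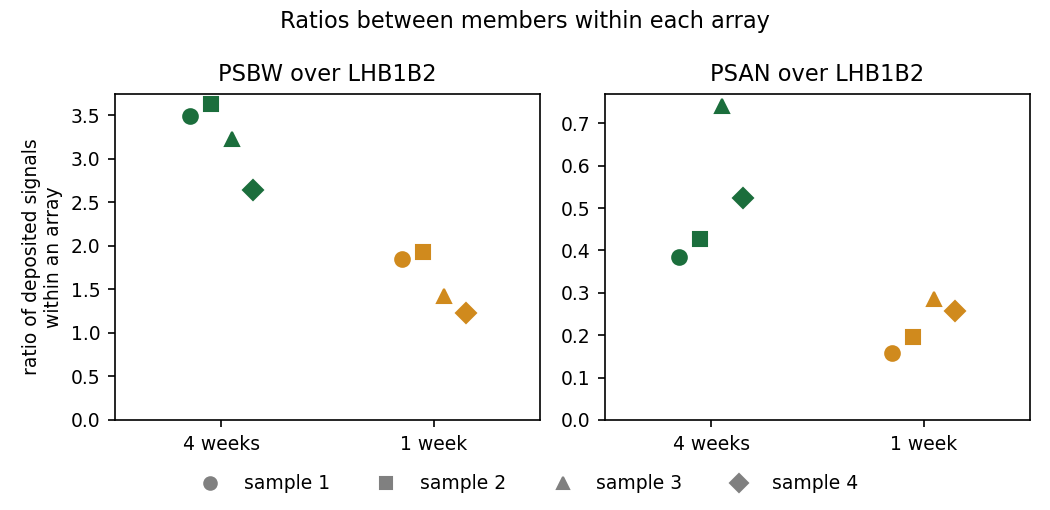
Ratio of deposited signals within each array, for PSBW over LHB1B2 (left panel) and PSAN over LHB1B2 (right panel), in the 4 samples of 4-week plants and the 4 of 1-week plants. The first ratio ran from 2.64 to 3.63 at 4 weeks, above 1.22 to 1.93 at 1 week, and the second from 0.384 to 0.741, above 0.158 to 0.286.

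Few other genes of the photosynthetic apparatus could be read beside these. Of 102 listed genes for photosystem, antenna, electron transport, ATP synthase, assembly, chlorophyll and Calvin cycle proteins, 9 had a single-gene row, the members included, and 8 were tested. Of these 8, 4 rose, 0 fell (0 also at an unadjusted p under 0.05) and 4 did not pass in the limma fit without a block, where 25.3% of all rows rose and 20.4% fell. With the values as deposited 3 rose and 1, LHB1B2, fell, where 28.01% of all rows rose and 19.97% fell. With the sample numbers as a block on normalized values 7 rose and LHB1B2 fell, where 32.66% of all rows rose and 23.97% fell. The median log2 difference of the 8 in the fit without a block was 0.57, against 0.16 for all tested rows. As deposited the gap was smaller, with 0.42 for the 8, members included, against 0.21 for all tested rows. No gene of electron transport or the ATP synthase was among them.

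PSB27, for a lumen protein that takes part in assembly and repair of photosystem II, resembled PSBY in its spread. Its signals were 0.691, 1.05, 2.39 and 2.69 in 4-week samples 1 to 4, and 0.512, 0.647, 1.04 and 1.22 in 1-week samples, with samples 3 and 4 above samples 1 and 2 at both ages. The log2 difference of 0.89 had a limma adjusted p of 0.146 without a block and of 0.00923 with the numbers as a block. The signal of samples 3 and 4 was 2.98 times that of samples 1 and 2 at 4 weeks and 1.96 times at 1 week, a gap reached or passed in 3.25% and 11.6% of tested rows. The chlorophyll synthesis genes CHLM, for magnesium protoporphyrin IX methyltransferase, and CHLP (AT1G74470), for geranylgeranyl reductase, rose by 0.38 and 0.54 (limma adjusted p = 0.0156 and 0.0237), and PRK, for the Calvin cycle enzyme phosphoribulokinase, by 1.14 (0.000163). These 3 had no overlap between ages as deposited, which held in either direction for 46.7% of tested rows. With samples 1 and 2, and 3 and 4, averaged and no block, where 13.7% of rows were called, CHLM and CHLP missed the threshold (adjusted p = 0.264 and 0.231), as did PSAN (0.275). LHB1B2 was the 1 tested gene of the 8 with a negative difference. SBPASE, for another Calvin cycle enzyme, was listed at 0 in 6 of 8 samples and was not tested.

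Single-gene rows measured in all samples were also ranked by how closely their log2 signal followed each member over the 8 samples, as a description among 563 rows that share arrays, ages and the split between sample pairs. For LHB1B2 the closest were AT1G32730 (Pearson r = 0.970), AT3G26630 (0.948) and AT4G26900 (0.939). AT3G26630 had a deposited signal of 6.88 ± 0.508 at 4 weeks and 12.3 ± 1.34 at 1 week (SD, n = 4 each), and its normalized log2 difference, −0.34, missed the threshold (limma adjusted p = 0.0509). The other two fell at 4 weeks on normalized values, AT1G32730 by 0.46 (adjusted p = 0.0285) and AT4G26900 by 0.83 (0.00314). For PSAN they were AT5G17280 (0.957), AT2G39190 (0.896) and AT5G03900 (0.894), all with a normalized log2 difference between 0.27 and 0.42 that did not pass.

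PSBY and PSBW differed strongly between the sample pairs, so their closest rows would largely share that split by selection. For PSBY they were AT5G22340 (0.988), AT3G52960 (0.988), which codes for the plastid peroxiredoxin IIE, and AT2G44760 (0.962). For PSBW they were AT1G50020 (0.975), AT5G18070 (0.972) and AT5G26880 (0.969), with mean deposited signals that differed little between ages, such as 1.23 ± 0.312 at 4 weeks and 1.20 ± 0.396 at 1 week for AT5G18070 (SD, n = 4 each). Among the members themselves, PSBW and PSBY ran against each other (r = −0.84) as did PSBY and LHB1B2 (−0.72) and PSAN and LHB1B2 (−0.58). PSBY and PSAN ran together (0.64), and PSBW had 0.38 with LHB1B2 and −0.20 with PSAN, over 8 samples that fall into clusters by age and number. LHB1B2 belongs to a set of LHCB1 genes with similar coding sequence, and how far its row also reports their transcripts was not tested.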

How the data were processed

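The deposited table holds 1 array intensity per row and sample on a linear scale. The scanning, background correction and scaling by the authors are not given in the sources used here. Rows were named through the GEO platform annotation and a RefSeq gene table (TAIR10.1). No row naming several genes was used, and no sequences or coordinates are given. Samples were grouped by title. Signals were turned to log2, leaving 0 as missing, and quantile normalized, because array medians differed by 0.127 on that scale. Rows needed 3 measured samples per age. Of 3439 rows, 2924 were tested and 515 were not, among them 2 at the ceiling in all samples. The linear model (lmFit, eBayes; limma 3.58.1, R 4.3.3) estimated 4 weeks minus 1 week, adjusted over all tested rows. The fit was also run on simulated arrays with independent noise. These lacked the split between sample pairs, so that run does not cover this feature of the data. Exact permutation tests used scipy 1.17.1. The number of arrays limits the precision.

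Alternatives were 5 other scalings, a pseudocount, a filter on dim rows, the sample number as a block, either pair of samples alone, averaged pairs, each sample left out, and an exact test. The genes named are the members, every listed photosynthesis gene with a single-gene row, and the 3 rows most correlated with each member. The members, lists and tests were chosen with earlier results of these data known.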

Additional observations from a re-analysis of the deposited data

How the results depend on the processing

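Over 22 alternatives each of the 4 members kept the direction of its log2 difference, and what changed was its size and the call. The blocks, averaged pairs, dim-row filter and exact test repeat an estimate by construction, so the direction could not change in them. PSBW came as low as 0.04 with median centring (limma adjusted p = 0.935), and set against the median row it changed side. PSBW passed with the replicate block (0.60) and in samples 3 and 4 alone (0.92), not in averaged pairs with a block (adjusted p = 0.0945), and ran from 0.40 to 0.86 with 1 sample left out. PSBY passed with the replicate block (1.09, and 1.03 as deposited), in samples 1 and 2 (1.22) or 3 and 4 (0.95) alone, and in averaged pairs with a block (1.09); it ran from 0.62 to 1.55 with 1 sample left out. PSAN lost its call as deposited (0.26, also with the block), with median (0.21) or 75th percentile centring (0.25), cyclic loess (0.30), samples 1 and 2 alone (0.24), averaged pairs with or without a block (0.39) and the exact permutation test (0.39), and ran from 0.33 to 0.47 with 1 sample left out. LHB1B2 gained a call as deposited (−0.94, also with the block), with median (−0.99), 75th percentile (−0.95) or brightest-row centring (−0.82), cyclic loess (−0.68) and the replicate block (−0.46), not in averaged pairs with a block (adjusted p = 0.126), and ran from −0.62 to −0.27 with 1 sample left out. The ratio of PSBW to PSAN turned from −0.17 to 0.21 after quantile normalization. Calls over all rows numbered 1337, 1656 with the block, 400 for averaged pairs without a block and 1060 for averaged pairs with one. Of 2814 rows the exact permutation test called 0, although 1285 had an unadjusted p under 0.05. The smallest adjusted p in that test was 0.0626, which PSAN had, so no row passed. Averaged pairs with a block and the block on deposited values were added after the data were seen. The cause of the changes between settings was not tested.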
